A study of Mus musculus with 25 samples.

Results

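The comparison described here set the E16.5 fat pad precursor (E16.5 FP), the tissue that the mammary sprout grows into, against the E16.5 mammary mesenchyme (E16.5 MM), the stroma directly around the sprout. Its members were chosen by tissue label alone, which gave 5 samples of E16.5 FP and 5 of E16.5 MM, 10 of the 25 samples in the series, and all 17657 genes that passed an expression filter were compared. The series profiled 5 mesenchymes by RNA-Seq, and the other 15 samples, E13.5 mammary, ventral skin and salivary gland mesenchyme, took part in the expression filter, the scaling and the estimate of spread and are not described. Both tissues came from female C57Bl/6JOlaHsd embryos of embryonic day E16.5, and no mutation, transgene or treatment is given for either. Flank skin with mammary rudiments 1 to 3 was treated with Dispase II and pancreatin-trypsin, the fat pad precursor was microdissected from it, and the mammary mesenchyme was taken with its epithelium, which was then removed with needles. Each sample was a pool from 2 to 3 embryos of 1 litter. The 5 pools of a tissue came from 3 litters and which pools shared a litter was not given, so p-values measured the spread between pools only.

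Mammary mesenchyme condenses around the epithelial bud, expresses steroid hormone receptors and is known for inducing and maintaining mammary epithelial fate. The fat pad precursor lies deeper, and its preadipocytes later fill with lipid and form the stroma through which ducts branch. Adipocyte differentiation is driven by PPARG and C/EBP transcription factors, and canonical Wnt signaling is known to restrain it.

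The 5 E16.5 FP libraries held between 20678150 and 27444688 counts and the 5 E16.5 MM libraries between 21987024 and 26370369. Some libraries stood apart in markers of other cell types, given here as the summed counts scaled per library to CPM of fixed gene lists. Every list member in the count table entered its sum, whether it was tested or not. The 34 skeletal muscle genes summed to 19280, 28250, 16700, 16390 and 2784 CPM in E16.5 FP replicates 1 to 5 and to 3845, 4654, 1304, 1819 and 1193 CPM in E16.5 MM replicates 1 to 5. E16.5 FP replicate 5 thus lay within the range of E16.5 MM, and the other 4 E16.5 FP samples above it. Epithelial genes summed to 258.4 CPM in E16.5 FP replicate 1 and to between 21.2 and 24.01 CPM in the other 4, against 40.02 to 366.3 CPM in E16.5 MM. In bulk tissue, fewer cells of a type and less RNA per cell cannot be told apart.

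**Figure D1:**
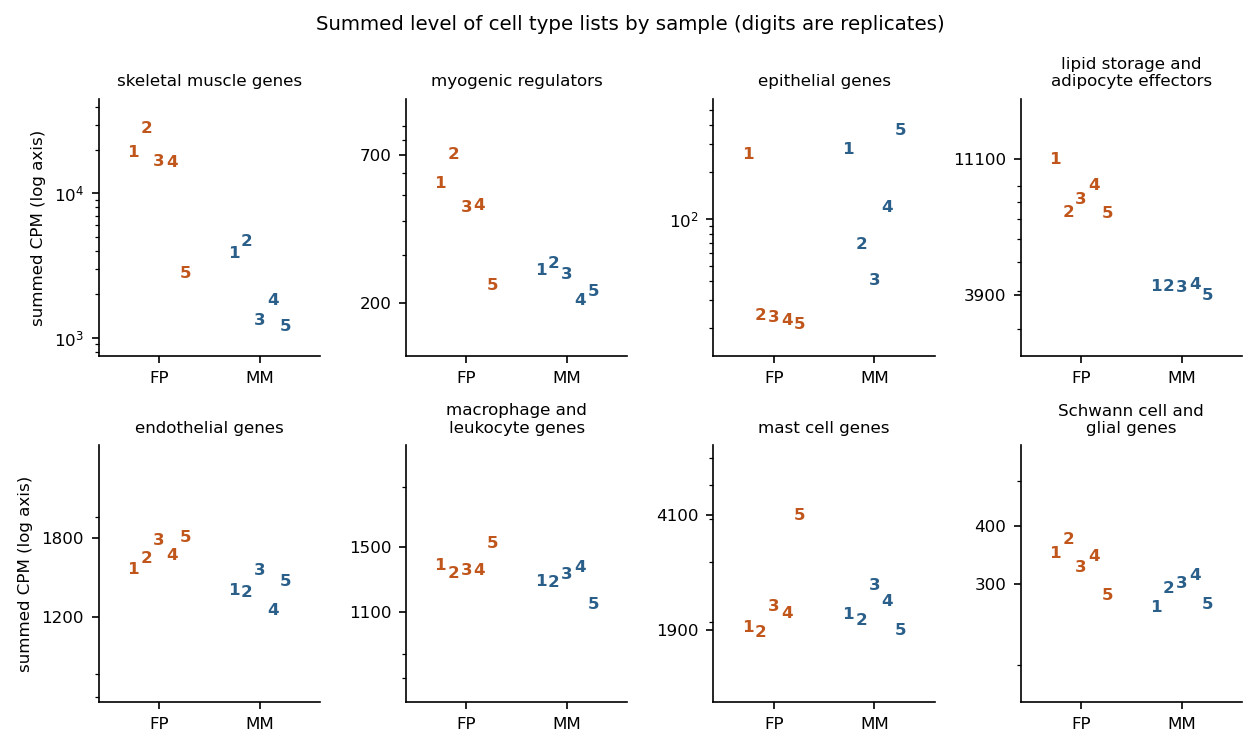
Summed CPM (log axis) of 8 gene lists in each E16.5 FP (FP) and E16.5 MM (MM) sample, with digits giving the replicate. Skeletal muscle genes reached 28250 CPM in E16.5 FP replicate 2 and only 2784 CPM in replicate 5, while the lipid storage list was at 7325 CPM or more in every E16.5 FP sample and at most 4211 CPM in E16.5 MM.

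The 2 tissues differed in many genes. A gene was called at a Benjamini-Hochberg adjusted p under 0.05 in edgeR's quasi-likelihood test, if its log2 fold change (E16.5 FP over E16.5 MM) was 0.58 or more in either direction and its average normalized count was over 50 in 1 of the tissues at least. By this rule 2497 genes (14.1%) were called, 1179 (6.68%) higher in E16.5 FP and 1318 (7.46%) lower. A change of at least 4-fold was seen in 224 of the higher and 244 of the lower genes, and of at least 16-fold in 9 and 36. The values of the 5 pools of each tissue did not overlap in 3813 genes (21.6%), among them 778 of the genes called higher and 1125 of those called lower. With the summed muscle level of each sample as a covariate in a fit of the 10 samples (here called the muscle covariate), 1323 genes were called, 475 higher and 848 lower, and 1165 of them were among the 2497. The same 10 samples without the covariate gave 2383 calls. Of the 2495 called genes that this fit tested, 95.1% kept their direction. Without E16.5 FP replicate 5, 2660 genes were called and all 2497 kept their direction. The median log2 fold change over all genes tested was -0.00567. Below, signed values are log2 fold changes with their SE after ± unless another measure is named.

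The markers listed for the 2 tissues were chosen with results of these samples known, several of them being genes that the study itself picked out in these tissues, so their values are a description and no independent check of the labels. The 6 fat pad markers, Pparg, Cebpa, Fabp4, Adipoq, Plin1 and Lpl, were called higher in E16.5 FP without overlap between samples. The mammary mesenchyme markers Esr1, Tbx3, Lef1, Pth1r and Tnc were called lower in E16.5 FP, again without overlap. The fat pad markers were still counted in E16.5 MM, where Fabp4 ranged from 1102 to 2941 and Lpl from 1906 to 5405 normalized counts (library-scaled counts, defined under the processing of the data).

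More transcription factors of adipogenesis rose than fell in the fat pad precursor. Of 32 tested, 11 were called higher and 3 lower, with a median log2 fold change of 0.41, and with the muscle covariate 8 and 2 were. Pparg (chr6:115360951-115490399, GRCm38), the nuclear receptor that is the master regulator of fat cell differentiation, had normalized counts of 3853, 2791, 3464, 3444 and 3540 in E16.5 FP and 1202, 1205, 1021, 1297 and 745 in E16.5 MM, in replicate order as in all such lists below. The lowest E16.5 FP sample lay far above the highest of E16.5 MM, with a log2 fold change of 1.64 ± 0.18 (SE, adjusted p = 9.75e-08). Cebpa, its partner in terminal differentiation, stood at 3122, 1864, 1978, 2280 and 1933 in E16.5 FP and at 557, 638, 519, 579 and 516 in E16.5 MM. E16.5 FP replicate 1 was highest, and the log2 fold change was 1.99 ± 0.17 (adjusted p = 1.11e-09). Ebf2, a factor that marks committed and brown preadipocytes, read 5690, 4139, 2934, 3945 and 3101 in E16.5 FP and 744, 746, 617, 648 and 568 in E16.5 MM (log2 fold change 2.58 ± 0.30, adjusted p = 4.68e-07). Klf15, a zinc finger factor of adipocytes and muscle, and Nr1h3, the oxysterol receptor LXR alpha, were higher by log2 fold changes of 2.58 and 1.46. The 3 that were lower were Gata3 at -1.57, Zfp467 at -0.76 and Zfp521 at -0.89. GATA3 and ZFP521 are known to hold back adipogenesis, whereas ZFP467 is known to favour it. Gata3 was not called when the count threshold was set on the mean of both tissues, and it lost its call with the muscle covariate.

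Most genes of fat storage that were tested were higher in the fat pad precursor. Of 46 lipid storage and adipocyte effector genes, 29 were called higher in E16.5 FP, 1 lower and 16 in neither direction. Their median log2 fold change was 1.40, and 33 did not overlap between the tissues, against 21.6% of all genes tested. With the muscle covariate 17 of 43 were called higher, fewer than were not called. The lipid droplet coat gene Plin1 had normalized counts of 1888, 643, 893, 1272 and 554 in E16.5 FP and 158, 89.7, 73.5, 122 and 42.1 in E16.5 MM. Adipoq (chr16:23146536-23158028, GRCm38), which encodes the hormone adiponectin, was at 5296, 1632, 1525, 2794 and 951 in E16.5 FP and at 75.1, 116, 55.1, 106 and 18.5 in E16.5 MM. Replicates 1 and 4 were the highest of E16.5 FP in both genes and replicate 5 the lowest, yet each E16.5 FP value lay above all of E16.5 MM. Their log2 fold changes were 3.43 ± 0.39 (adjusted p = 2.78e-07) and 5.04 ± 0.48 (adjusted p = 1.78e-07). Fabp4, a fatty acid carrier, ranged from 11174 to 23775 in E16.5 FP, 2.87 ± 0.25 higher on the log2 scale. Lpl, the lipase that frees fatty acids from lipoproteins, ranged from 9430 to 12563 there, 1.62 ± 0.27 higher. Aoc3, a surface amine oxidase of adipocytes, was 1.30 ± 0.15 higher.

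The called genes of this list with the largest differences were Cidec, Gpd1, Adipoq and Thrsp. Gpd1, the cytosolic enzyme that makes glycerol 3-phosphate for triglycerides, read 7858, 1703, 1264, 3994 and 640.4 normalized counts in E16.5 FP and 81.99, 52.2, 67.3, 83.7 and 25.7 in E16.5 MM. Values within E16.5 FP spread widely, from replicate 5 to replicate 1, and no sample overlapped with E16.5 MM. Cidec, a protein that enlarges lipid droplets, read 622, 118, 74.3, 322 and 31.2 in E16.5 FP and 2.31, 7.28, 2.45, 7.92 and 1.03 in E16.5 MM. The log2 fold changes were 5.64 ± 0.55 for Gpd1 (adjusted p = 4.89e-08) and 5.77 ± 0.77 for Cidec (adjusted p = 5.64e-06). With the muscle covariate they were 3.67 (adjusted p = 0.068) and 3.13 (adjusted p = 0.188), and neither was called, nor was Thrsp, a nuclear regulator of lipogenesis (3.79 without the covariate). Leaving out E16.5 FP replicate 1 lowered the fold difference of Cidec from 54.7 to 32.1, and the log2 fold changes of Gpd1 and Thrsp were then 4.95 and 2.87. In 24 of the 29 genes called higher E16.5 FP replicate 1 was the highest of the 5 samples, and in 19 replicate 5 was the lowest. The same list summed to 11060, 7361, 8105, 9095 and 7325 CPM in E16.5 FP replicates 1 to 5 and to between 3885 and 4211 CPM in E16.5 MM. Normalized counts of Fasn, fatty acid synthase, ranged from 4056 to 6208 in E16.5 FP and from 4270 to 5008 in E16.5 MM, and those of Scd1, which desaturates fatty acids, from 527 to 699 and from 436 to 737. Neither of these 2 enzymes, which were picked after their values had been seen, was called, with log2 fold changes of 0.03 ± 0.12 and 0.07 ± 0.11. The 1 gene called lower was Nnat, an imprinted gene of membrane calcium handling, at -2.17 ± 0.39. Its adjusted p was 0.0793 with the replicate number as a block and it lost its call with the muscle covariate as well.

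**Figure D2:**
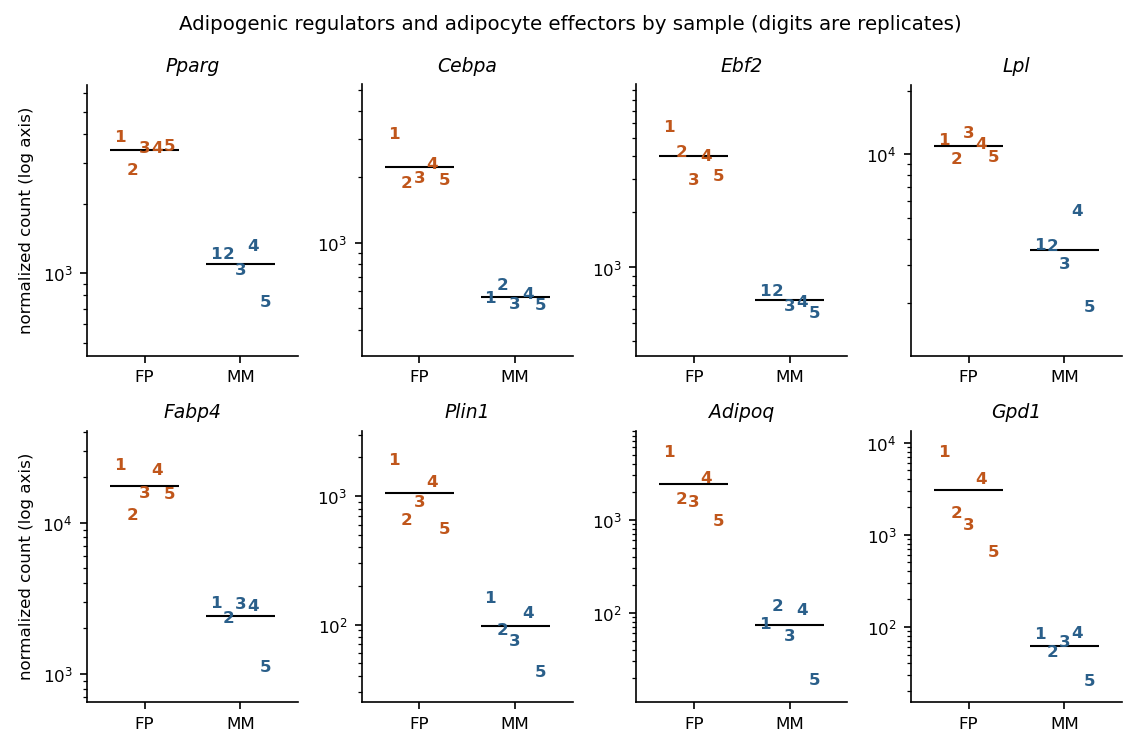
Normalized counts (log axis) of 8 adipogenic and adipocyte genes in each sample, with digits giving the replicate and bars the mean of 5 samples. In all 8 genes every E16.5 FP sample lay above every E16.5 MM sample, and E16.5 FP replicate 1 was highest in 7 of them.

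More genes of brown adipocytes were called higher than lower. Of 12 tested, 7 were called higher and 2 lower, with a median log2 fold change of 2.53. Lhx8, a homeobox factor of early brown fat, stood at 153, 195, 206, 212 and 310.3 normalized counts in E16.5 FP and at 24.3, 29.1, 19.6, 45.3 and 10.3 in E16.5 MM (3.06 ± 0.33, adjusted p = 4.41e-08). It was highest in replicate 5, the E16.5 FP sample with the lowest sums of muscle and lipid storage genes. Cox8b and Cox7a1, respiratory chain subunits shared by brown fat and striated muscle, read 130.1, 101, 71.7, 88.7 and 21.9 and 287, 55.6, 27.9, 122 and 24.99 in E16.5 FP, and in both the samples of the 2 tissues overlapped. Their calls (3.02 and 2.83), and that of the coactivator gene Ppargc1a (2.07), were lost with the muscle covariate. The list then had 3 called higher and 2 lower of 10, and its median log2 fold change was 1.07. The same 10 samples without the covariate gave a median of 2.52, and leaving out E16.5 FP replicate 1 gave 2.00. Cox8b was 3.98 without E16.5 MM replicate 2 and Cox7a1 2.00 without E16.5 FP replicate 1. The 2 genes lower in E16.5 FP were Dio2, the deiodinase that activates thyroid hormone, at -2.45 ± 0.22 and Eva1a, a membrane protein gene, at -1.50 ± 0.14. The place of Eva1a among brown adipocyte genes is uncertain, and the counts and median of the list include it. Markers of adipocyte progenitors went both ways, with 3 of 17 called higher and 3 lower (5 and 2 with the muscle covariate). Pi16, Fap and F3, all genes of fibroblast-like progenitors, were higher by log2 fold changes of 0.86, 0.98 and 1.98. Pdgfra and Pdgfrb, the PDGF receptors of mesenchymal cells, were lower, at -1.21 ± 0.11 and -1.19 ± 0.097.

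Because adipocyte and muscle genes moved as groups, the 250 bases before their RefSeq transcription starts (GRCm38.p6) were searched on both strands for letters of known binding sites. The shares are descriptions, and a match is not evidence of binding. The C/EBP letters TTGCNNAA were in 9.56% of the 32851 promoters of the table and of 9.53% of 12771 genes tested. They were in 5 of the 31 lipid storage genes that had an entry (16.1%), 3 of 25 adipogenic transcription factors (12%), 4 of 26 skeletal muscle genes (15.4%), 4 of 17 mammary mesenchyme identity genes (23.5%) and 0 of 12 canonical Wnt genes. The highest of these shares was thus not in an adipocyte list, and counts this small cannot tell whether the lists differ. The nuclear receptor half-site AGGTCA was in 13.2% of genes tested, and in the same order of lists in 8 (25.8%), 6 (24%), 3 (11.5%), 0 and 1 (8.33%). The E-box CAGCTG, in 14.7% of genes tested, was found in 10 (32.3%), 4 (16%), 12 (46.2%), 4 (23.5%) and 3 (25%), so it was above that share in all 5 lists. The MEF2 letters TATTTATA were in 1.50% of genes tested, in 2 muscle genes (7.69%) and in 0 of the other lists. The TCF/LEF letters CTTTGAT, in 2.91% of genes tested, were found in 1 gene each of the canonical Wnt, mammary mesenchyme identity and adipogenic transcription factor lists. The promoters below are shown since they carry these letters, written in capitals, in front of genes described here. None of the capitals overlapped with another of the 5 motifs. The first 3 are of adipocyte genes and hold TTGCNNAA, and the table lists 3 starts for Pparg and 2 for Cidec, of which 1 is shown.
Pparg, chr6:115421816-115422065, plus strand: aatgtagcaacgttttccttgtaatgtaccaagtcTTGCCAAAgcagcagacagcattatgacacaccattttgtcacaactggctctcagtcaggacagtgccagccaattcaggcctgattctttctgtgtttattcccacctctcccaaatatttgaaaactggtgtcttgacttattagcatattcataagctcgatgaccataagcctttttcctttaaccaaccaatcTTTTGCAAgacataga
Plin1, chr7:79732777-79733026, minus strand: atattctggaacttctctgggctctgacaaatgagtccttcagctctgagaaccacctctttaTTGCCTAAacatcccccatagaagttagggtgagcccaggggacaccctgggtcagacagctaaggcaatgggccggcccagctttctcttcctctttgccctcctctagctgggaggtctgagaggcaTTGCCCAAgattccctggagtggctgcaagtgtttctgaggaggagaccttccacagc
Cidec, chr6:113434765-113435014, minus strand: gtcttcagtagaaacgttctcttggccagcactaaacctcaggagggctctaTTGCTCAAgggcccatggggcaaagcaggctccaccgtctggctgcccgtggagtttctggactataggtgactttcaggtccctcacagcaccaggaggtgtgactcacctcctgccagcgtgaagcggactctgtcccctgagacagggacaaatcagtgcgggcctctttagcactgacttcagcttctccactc
Acta1, chr8:123894776-123895025, minus strand: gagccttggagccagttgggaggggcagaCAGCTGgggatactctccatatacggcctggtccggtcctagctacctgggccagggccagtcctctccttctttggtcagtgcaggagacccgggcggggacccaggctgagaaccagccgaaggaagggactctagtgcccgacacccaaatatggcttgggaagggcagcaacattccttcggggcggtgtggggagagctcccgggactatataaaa
Des, chr1:75360042-75360291, plus strand: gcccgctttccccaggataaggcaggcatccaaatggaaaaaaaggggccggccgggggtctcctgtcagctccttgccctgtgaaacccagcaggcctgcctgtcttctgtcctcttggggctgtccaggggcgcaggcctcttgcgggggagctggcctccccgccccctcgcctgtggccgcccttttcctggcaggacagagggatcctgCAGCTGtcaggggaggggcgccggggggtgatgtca
The second match of Pparg, TTTTGCAA, reads as TTGCNNAA on the opposite strand. The last 2, of skeletal muscle actin and of desmin, hold the E-box CAGCTG.

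Outside the cell type lists, the 10 genes with the largest increase in E16.5 FP were led by adipocyte genes. They were Cidec, Gpd1, Slc36a2, Adipoq, Eef1a2, Acvr1c, Klb, Lgals12, 2310002L09Rik and Aldh1a2, with log2 fold changes from 3.86 to 5.77. Klb, the co-receptor for FGF21, ranged from 177 to 501 normalized counts in E16.5 FP and from 9.24 to 29.4 in E16.5 MM. Acvr1c, an activin receptor of fat cells, ranged from 89.6 to 973 and from 15.9 to 26.6. Lgals12, a galectin of lipid droplets, was 3.98 ± 0.39 higher on the log2 scale, and Slc36a2, an amino acid transporter of adipocytes, 5.25 ± 0.73. Aldh1a2, which makes retinoic acid, read 314, 277, 142, 244 and 181 in E16.5 FP and 13.9, 10.9, 23.3, 16.97 and 14.4 in E16.5 MM, a difference of 3.86 ± 0.23 (adjusted p = 2.47e-12) that was 3.66 with the muscle covariate. Eef1a2, the elongation factor of muscle and neurons, was 4.70 ± 0.67 higher. The covariate ended the calls of Cidec, Gpd1, Slc36a2, Eef1a2 and Acvr1c among these 10. Without E16.5 FP replicate 1, Slc36a2 was 4.42 and Acvr1c 3.41, and without E16.5 MM replicate 4 Eef1a2 was 5.83.

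Regulators and secreted proteins of several families were among the genes with the largest decrease in E16.5 FP. Sim2, a transcription factor of the bHLH-PAS family, had normalized counts of 36.2, 41.4, 3.98, 33.02 and 13.54 in E16.5 FP and 3230, 3724, 3341, 2148 and 5059 in E16.5 MM (-7.05 ± 0.42, adjusted p = 1.04e-11). Pirt, a membrane regulator of TRP channels, was -7.12 ± 0.34 (-7.76 without E16.5 FP replicate 3), and Adh7, a retinol-oxidising alcohol dehydrogenase, -6.43 ± 0.32. Kera, which encodes the proteoglycan keratocan, ranged from 47.5 to 77.4 in E16.5 FP and from 2510 to 3820 in E16.5 MM (-5.76 ± 0.20, adjusted p = 6.09e-16). Others among the 10 largest decreases were a (nonagouti, a secreted regulator of pigment type), the BMP family ligand gene Gdf7, Apela, which encodes a ligand of the apelin receptor, the calcium channel subunit gene Cacna2d3 and Gm14226, with log2 fold changes of -6.51, -6.17, -5.95, -5.60 and -5.33. Apela was -7.71 without E16.5 FP replicate 5. Exons of a overlap with Raly and those of Apela with Gm45886 on the same strand, so how reads were divided there is uncertain. The genes named here kept their calls with the muscle covariate, at log2 fold changes between -7.28 and -4.51.

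Genes that mark the mammary mesenchyme were lower in the fat pad precursor. Of 25 tested, 16 were called lower and 3 higher, with a median log2 fold change of -1.11. Between the tissues 21 did not overlap, against 21.6% of all genes tested. The estrogen receptor gene Esr1 (chr10:4611593-5005614, GRCm38) read 139, 111, 214, 161 and 158 normalized counts in E16.5 FP and 3658, 4735, 3201, 2349 and 5918 in E16.5 MM (-4.67 ± 0.26, adjusted p = 1.83e-12). Tbx3, a T-box repressor needed for mammary placodes, read 583, 860.1, 674, 538 and 768 in E16.5 FP and 3031, 3530, 2639, 2082 and 4766 in E16.5 MM (-2.23 ± 0.20, adjusted p = 4.31e-09). In both genes all E16.5 MM samples were above all E16.5 FP samples, with the largest count in E16.5 MM replicate 5. Inhbb, the inhibin beta B chain gene, was -4.84 ± 0.26. Pth1r, the receptor through which PTHrP acts on this mesenchyme, showed a smaller change, with counts of 1306 to 1833 in E16.5 MM and 753 to 897 in E16.5 FP (-0.94 ± 0.098, adjusted p = 3.04e-08). Its exons overlap with those of Myl3, a muscle myosin gene, on the other strand. Msx2, a homeobox gene of the Wnt and BMP pathways, had 3 raw counts over the 5 E16.5 FP libraries and 434 in E16.5 MM, a ratio of 151 with an exact 95% interval of 51.3 to 735 that covers counting error only. Prlr, the prolactin receptor gene, Fgf10 and Ptx3, a secreted pentraxin gene, were the 3 called higher, at 1.32 ± 0.22, 0.67 ± 0.13 and 0.80 ± 0.13. In 13 of the 16 lower genes the highest E16.5 MM value was in replicate 5, and in 8 the lowest was in replicate 4. Over all 34 nuclear hormone receptors 6 were called higher and 5 lower, so the family went both ways. The counts were 2 and 3 with the muscle covariate, and 3 were lower without E16.5 MM replicate 5. Nr3c2, the mineralocorticoid receptor gene, was higher (1.29 ± 0.22) and Rarg, the retinoic acid receptor gamma gene, lower (-1.60 ± 0.11), and the call of Nr3c2 was lost with the muscle covariate.

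**Figure D3:**
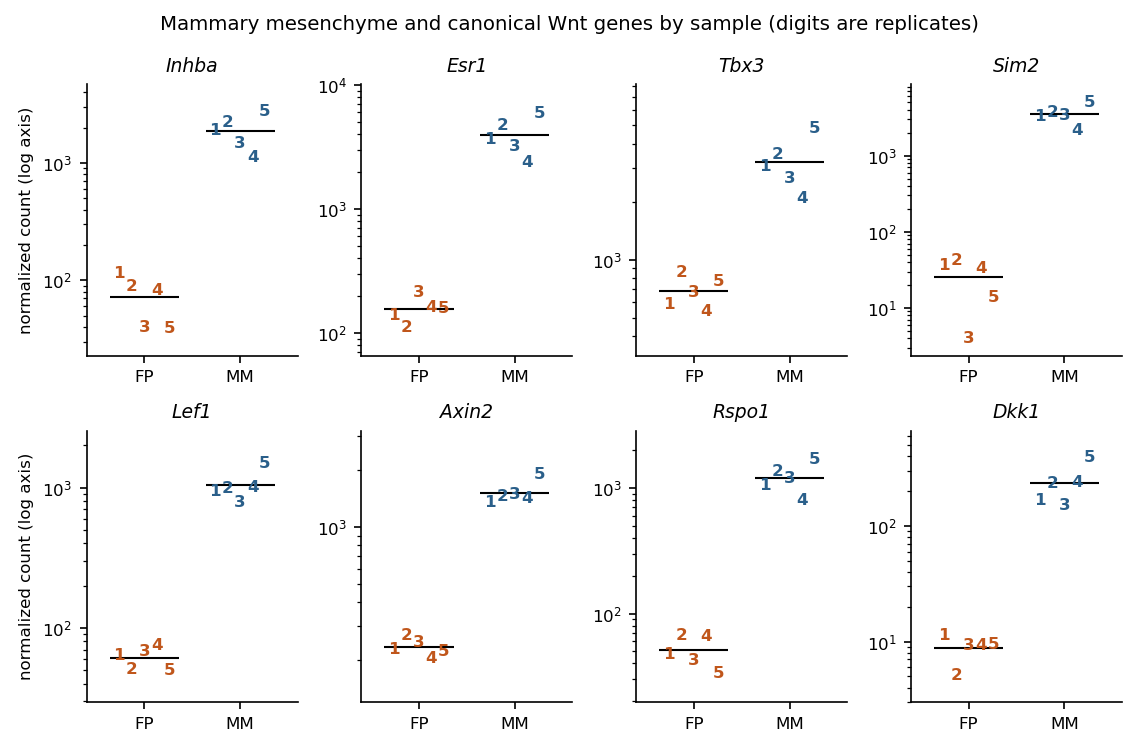
Normalized counts (log axis) of 8 genes of mammary mesenchyme and canonical Wnt signaling in each sample, with digits giving the replicate and bars the mean of 5 samples. Every E16.5 MM sample lay above every E16.5 FP sample, and E16.5 MM replicate 5 was highest in all 8 genes.

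Regulators of the dermal and fibroblast lineages were called lower in 14 of 28 tested and higher in 2 (median log2 fold change -0.98). Twist2, a bHLH repressor of dermal fibroblasts, ranged from 388 to 662 normalized counts in E16.5 FP and from 2982 to 3925 in E16.5 MM (-2.71 ± 0.14, adjusted p = 1.03e-13). Crabp1, a retinoic acid binding protein of dermal papilla cells, was -3.81 ± 0.20, the homeobox gene Irx1 -3.93 ± 0.20 and Trps1, a GATA-type repressor, -3.08 ± 0.26. The 2 that were higher were Meox2 (1.18 ± 0.14) and Tcf15 (1.13 ± 0.22), which are factors of paraxial mesoderm and of endothelium in muscle and fat. Of 13 T-box genes 4 were called lower and 2 higher, or 1 higher without E16.5 FP replicate 2. With only the 10 samples fitted, with the replicate block and with the mean over both tissues above 50, 1 was higher and 3 lower. Tbx2 and Tbx5 were lower (-1.11 and -1.49), as was Tbx3 above. Tbx15, a factor linked to adipocyte and muscle identity, was higher, with counts of 1767, 2747, 2157, 1781 and 2373 in E16.5 FP and 1028, 1054, 1008, 1063 and 827 in E16.5 MM (1.12 ± 0.17, adjusted p = 1.55e-05).

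Hox genes, which carry positional identity along the body, split by cluster. Of 10 tested in the Hoxa cluster 6 were called higher in E16.5 FP, with log2 fold changes from 1.44 to 2.24 over all 10 (median 1.70). In the Hoxb cluster 7 of 8 were called lower (median -1.90), in Hoxc 4 of 6 (median -0.93) and in Hoxd 5 of 8 (median -1.23), while the genes of those clusters that were not called lower were not called higher either. With the muscle covariate 2 Hox genes were called higher and 12 lower. Hoxb9 (chr11:96271457-96276595, GRCm38) read 109.7, 58.6, 63.7, 42.3 and 30.2 normalized counts in E16.5 FP and 1973, 2142, 2230, 1487 and 2707 in E16.5 MM (-5.12 ± 0.24, adjusted p = 5.08e-14). Hoxa9 moved the other way, at 609, 449, 514, 546 and 687 in E16.5 FP and 201, 171, 205, 234 and 136 in E16.5 MM (1.57 ± 0.16, adjusted p = 2.21e-08). Neither gene overlapped between the tissues. Hoxb8 and Hoxb6 were lower at -2.48 and -2.24, and Hoxd3 at -2.50, though its exons overlap with Hoxd4 on the same strand and it was not called when the threshold was set on the mean of both tissues. Hoxa5, Hoxa3 and Hoxa2 were higher by 2.06, 1.67 and 1.73. Those 3 lost their calls with the muscle covariate, while Hoxa9 rose to 1.81. Exons of both Hoxa2 and Hoxa3 overlap with Gm28308 on the same strand. Of 8 Dlx and Msx genes, homeobox factors of skin appendages and limbs, 2 were called lower, or 1 without E16.5 MM replicate 5, with the muscle covariate or with the mean over both tissues above 50.

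Canonical Wnt signaling genes were lower in the fat pad precursor. Of 19 feedback and target genes 13 were called lower and 1 higher, with a median log2 fold change of -2.61, the lowest of the 35 pathway lists. Axin2 (chr11:108920349-108950783, GRCm38), the negative feedback gene used as a reporter of the pathway, read 225, 269, 246, 202 and 219.7 normalized counts in E16.5 FP and 1341, 1450, 1475, 1417 and 1885 in E16.5 MM. Lef1, a nuclear effector, read 63.3, 50.5, 67.7, 74.3 and 49.98 and 929.6, 977, 778, 1008 and 1488. In both genes the tissues did not overlap, at log2 fold changes of -2.70 ± 0.12 (adjusted p = 6.56e-15) and -4.08 ± 0.19 (adjusted p = 1.81e-14). Lgr5, an R-spondin receptor and target gene, was -2.64 ± 0.20 and Ccnd1, cyclin D1, -0.73 ± 0.11, the latter not called with the muscle covariate. Myc, a growth regulator and Wnt target, was the 1 gene called higher, at 0.98 ± 0.15. Among the ligands and R-spondins, 6 of 16 were called lower (4 of 14 with the muscle covariate). Rspo1, which amplifies Wnt signals, read 47.5, 66.7, 42.5, 65.01 and 33.3 in E16.5 FP and 1038, 1352, 1186, 799 and 1668 in E16.5 MM (-4.56 ± 0.19, adjusted p = 5.73e-15). Wnt5a, a mostly non-canonical ligand gene, and Wnt11 were -2.10 ± 0.18 and -2.47 ± 0.15, and Rspo3 was -0.96, a call that ended with the muscle covariate.

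Of 23 antagonists of the pathway 9 were called lower and 3 higher (median -0.53), or 6 and 2 of 22 with the muscle covariate. Dkk1, a secreted blocker of LRP co-receptors, read 11.3, 5.05, 9.29, 9.29 and 9.37 normalized counts in E16.5 FP and 166, 235, 149, 237 and 390.2 in E16.5 MM (-4.72 ± 0.32, adjusted p = 1.37e-11). Notum, which removes the lipid of Wnt ligands, ranged from 6.25 to 17.3 in E16.5 FP and from 126 to 341 in E16.5 MM (-3.90 ± 0.27). Apcdd1, a membrane-bound inhibitor, ranged from 551 to 890.3 and from 10115 to 15313 (-4.05 ± 0.16). Wif1, a secreted Wnt-binding protein gene, was -3.79 ± 0.48 and was not called with the muscle covariate. Sfrp1, a secreted frizzled-related protein gene, was higher, with counts of 580.2 to 725 in E16.5 MM and 1244 to 1568 in E16.5 FP (1.16 ± 0.19, adjusted p = 3.91e-05), as was Shisa2, which retains receptors in the endoplasmic reticulum (2.05 ± 0.30). The 19 receptor genes went both ways, 4 higher and 6 lower (2 and 5 with the muscle covariate). Fzd10 was lower (-3.37 ± 0.33), as were Lgr6 (-1.93) and the planar polarity receptor gene Ptk7 (-1.97 ± 0.092). Fzd4 (1.13 ± 0.12), Fzd8 (1.58 ± 0.14) and Fzd5 (1.17) were higher, and the call of Fzd5 was lost with the covariate.

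Growth factor genes differed by family. Igf1 and Igf2, the insulin-like growth factors, were not called. Igf1 read 11925, 12950, 7349, 9850 and 7226 normalized counts in E16.5 FP and 9819, 11182, 8665, 7776 and 13132 in E16.5 MM (-0.04 ± 0.22, adjusted p = 0.935), with the tissues overlapping, and Igf2 differed by 0.22 ± 0.11 (adjusted p = 0.12). Of the 20 IGF pathway genes 1 was called higher, near the 6.68% of all genes tested. That call was lost without E16.5 FP replicate 2 and with the muscle covariate. With only the 10 samples fitted, with the replicate block, with DESeq2's Wald test and without E16.5 FP replicate 1 or E16.5 MM replicate 3 or 4, 2 were called higher. In the other direction 3 were called lower (5 without E16.5 FP replicate 2, 2 with the muscle covariate), Pappa and Pappa2, proteases that free IGF from its binding proteins, and Stc1, which inhibits them. Pappa read 206, 214, 86.3, 229 and 146 in E16.5 FP and 1191, 1203, 1118, 767 and 1438 in E16.5 MM (-2.69 ± 0.20, adjusted p = 2.94e-10), Pappa2 was -2.40 ± 0.25 and Stc1 -0.74 ± 0.13, the last not called with the muscle covariate. Exons of Pappa2 overlap with 1600012P17Rik on the same strand. Fgf10, a mesenchymal ligand that drives epithelial budding, read 1029, 1713, 1393, 1158 and 1666 in E16.5 FP and 903, 1015, 883, 703 and 885 in E16.5 MM. The groups did not overlap (0.67 ± 0.13, adjusted p = 0.00017), and with the muscle covariate the estimate was 0.73 but the gene was not called. Of 32 FGF pathway genes 8 were called higher and 5 lower (3 and 2 of 29 with the muscle covariate), among them the ligand Fgf18 (1.52 ± 0.21) and the decoy receptor Fgfrl1 (1.47 ± 0.10), which were higher, and Fgfr1 (-0.73 ± 0.094), which was lower.

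BMP and activin genes were more often lower than higher in the fat pad precursor. Among 37 BMP pathway genes 15 were called lower and 5 higher (median -0.43), and 13 and 3 of 35 with the muscle covariate. Bmp2, a ligand, ranged from 50.5 to 84.9 normalized counts in E16.5 FP and from 402 to 665 in E16.5 MM (-2.78 ± 0.15, adjusted p = 2.75e-13). The secreted antagonist Grem1 was -2.67 ± 0.31. Bmp5 (1.94 ± 0.29) and the extracellular regulators Bmper (1.48 ± 0.19) and Chrdl1 (1.66 ± 0.17) were higher. Of 24 TGF-beta and activin genes 7 were lower and 2 higher (5 and 1 with the muscle covariate). Inhba, the activin A chain gene, read 114, 88.9, 39.8, 81.5 and 38.5 in E16.5 FP and 1895, 2240, 1459, 1121 and 2752 in E16.5 MM, without overlap (-4.69 ± 0.26, adjusted p = 2.47e-12). Ltbp1, which stores latent TGF-beta, was -0.96 ± 0.15 and the receptor gene Acvr2a 0.77 ± 0.098, and both calls ended with the muscle covariate.

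Of the 36 ErbB, ectodysplasin, PDGF, HGF and PTHrP genes 8 were called higher and 10 lower (4 and 9 of 34 with the muscle covariate). Eda, the ectodysplasin ligand gene, read 637, 687, 482, 514 and 369.6 normalized counts in E16.5 FP and 331, 348, 340.4, 355 and 371 in E16.5 MM (0.62 ± 0.12, adjusted p = 0.000156). E16.5 FP replicate 5 fell within the range of E16.5 MM, and Eda was not called without E16.5 FP replicate 1 (0.57) or replicate 2 (0.53) or with the muscle covariate (0.20). Edaradd, the adaptor of its receptor, was -2.79 ± 0.25. Hgf, hepatocyte growth factor, ranged from 881 to 1887 in E16.5 FP and from 679 to 986 in E16.5 MM. Its log2 fold change of 0.54 ± 0.19 fell short of the threshold, though it passed with the muscle covariate (0.98) and when any 1 of 5 libraries was left out, E16.5 FP replicates 1, 2 and 4 and E16.5 MM replicates 2 and 5 (0.60 to 0.66). Nrg1, a neuregulin that activates ERBB receptors, was lower (-2.97 ± 0.19), as was Pdgfc (-1.23 ± 0.26). Egfr (1.04 ± 0.096) and the vessel ligand gene Angpt1 (1.60 ± 0.14) were higher. In the Hedgehog pathway 5 of 12 were lower and 2 higher, of which 3 lower and neither of the 2 higher remained called with the muscle covariate, with Gli1, its transcriptional readout, at -1.18 ± 0.21 and the co-receptor gene Gas1 at -0.79 ± 0.085. In the Notch pathway 1 of 20 was called in each direction, near the shares of all genes tested (6.68% higher and 7.46% lower). The call higher was lost when only the 10 samples were fitted, with or without the muscle covariate, without an expression filter and without any 1 of 7 libraries, E16.5 FP replicates 1, 2 and 4 and E16.5 MM replicates 2 to 5, and 2 were lower without E16.5 FP replicate 2. Among 15 retinoic acid genes 5 were lower and 3 higher. The breakdown enzyme gene Cyp26b1 (-3.60 ± 0.37) and Crabp2 (-3.09 ± 0.18) were lower, while the plasma retinol carrier gene Rbp4 (1.74 ± 0.28) and the synthesis enzyme gene Aldh1a2 were higher. Agt, angiotensinogen, was the 1 of 8 renin-angiotensin genes called (2 when only the 10 samples were fitted), with counts from 2135 to 4273 in E16.5 FP and from 659 to 1583 in E16.5 MM (1.32 ± 0.25), and was not called with the muscle covariate.

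**Figure D4:**
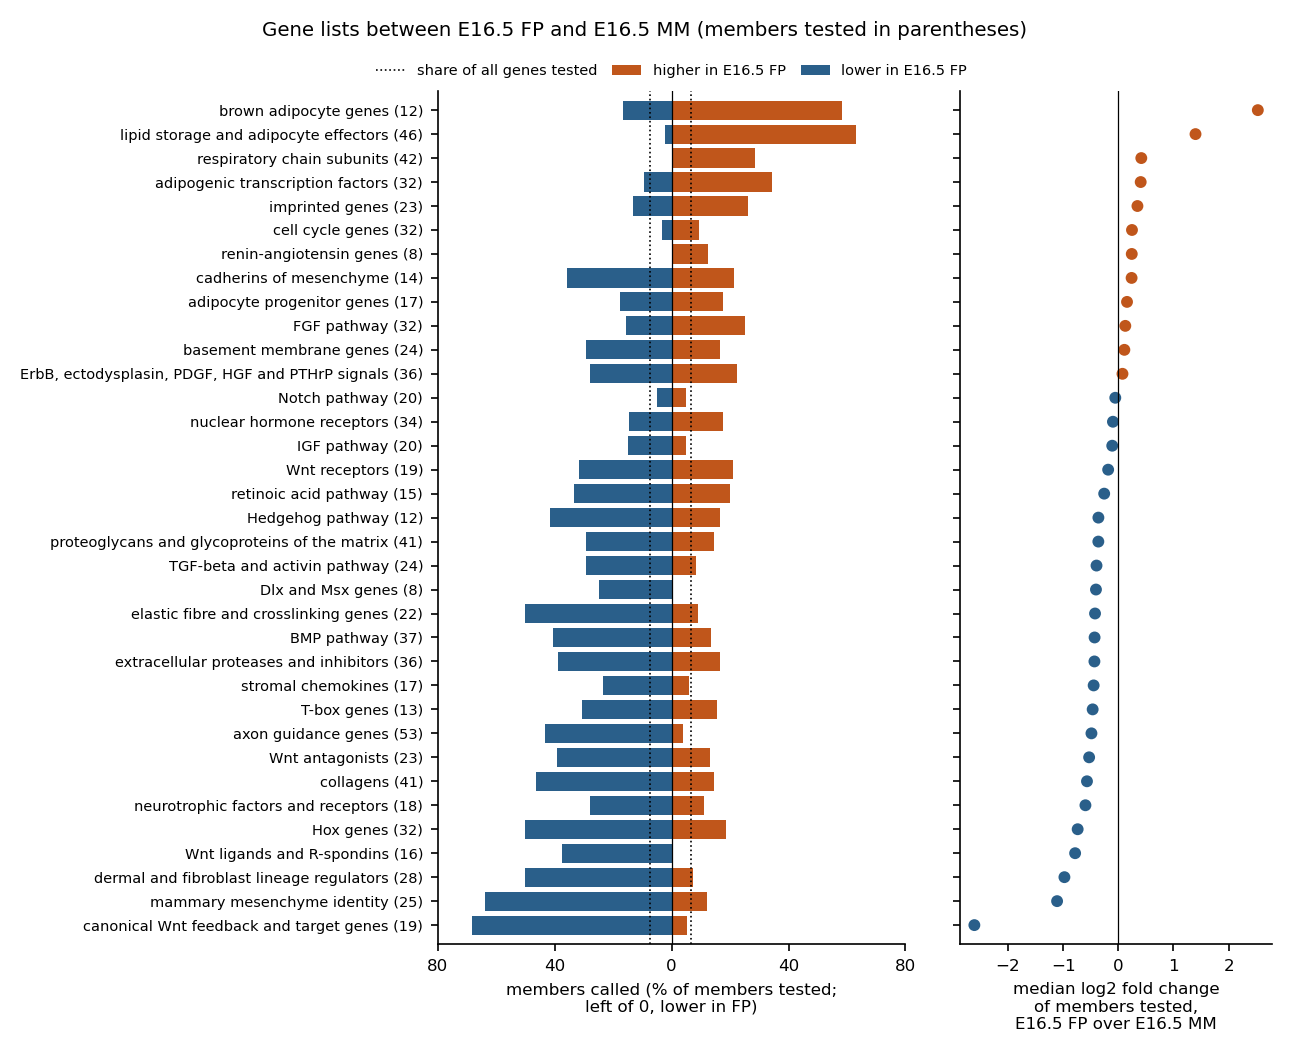
Share of the members of each pathway list called higher (right) or lower (left) in E16.5 FP, with dotted lines at the share of all genes tested, 6.68% and 7.46%, and beside it the median log2 fold change of each list. Lipid storage and brown adipocyte genes lay at the top, at medians of 1.40 and 2.53, and canonical Wnt feedback and target genes at the bottom, at -2.61. With the muscle covariate these medians were 0.943, 1.07 and -2.55.

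In each of the extracellular matrix lists more genes were called lower than higher in the fat pad precursor, though in no list were more than 11 of 22 lower. Of 41 collagens 19 were called lower and 6 higher (median -0.57), or 16 and 3 with the muscle covariate, and the list summed to between 31680 and 37870 CPM in E16.5 FP and between 55080 and 60380 CPM in E16.5 MM. Col1a1 and Col1a2, the chains of type I collagen, picked after their values had been seen, were -1.40 ± 0.24 (adjusted p = 5.46e-05) and -1.11 ± 0.095 (adjusted p = 1.2e-09). Col7a1, the anchoring fibril collagen beneath the epidermis, read 261, 73.8, 112, 79.5 and 77.1 normalized counts in E16.5 FP and 2595, 2555, 3152, 4000 and 2740 in E16.5 MM (-4.65 ± 0.31). The highest E16.5 FP value was in replicate 1, the E16.5 FP sample with the largest epithelial sum. Within E16.5 MM, Col7a1 was highest in replicate 4 and the epithelial sum in replicate 5. A link between them was not tested. Col24a1 and Col26a1 were -1.96 ± 0.09 and -1.94 ± 0.13. Col6a6, a microfibrillar chain, was higher, with counts of 852 to 1284 in E16.5 MM and 3057 to 7398 in E16.5 FP (2.13 ± 0.22), as was Col8a2 (1.57 ± 0.28). Among 22 elastic fibre and crosslinking genes 11 were lower and 2 higher. Mfap4 (-2.42 ± 0.15), Fbln1 (-1.94 ± 0.15) and the lysyl oxidase gene Loxl4 (-3.65 ± 0.19) were lower, and Mfap5 (1.05 ± 0.20) and Fbln5 (0.64 ± 0.11) higher.

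Of 41 proteoglycans and glycoproteins 12 were lower and 6 higher (10 and 3 with the muscle covariate). Tnc, the tenascin laid down around the mammary bud, read 2850, 4361, 2573, 3027 and 1554 normalized counts in E16.5 FP and 10856, 12782, 9585, 7970 and 15971 in E16.5 MM (-1.99 ± 0.23, adjusted p = 4.24e-07). E16.5 FP replicate 5 was lowest, and the tissues did not overlap. Its relative Tnn was -5.06 ± 0.54, with counts of 1.13 to 7.29 in E16.5 FP and 66.7 to 241 in E16.5 MM. Postn, periostin, ranged from 123203 to 142043 in E16.5 FP and from 133705 to 174642 in E16.5 MM and was not called (-0.24 ± 0.21, adjusted p = 0.449). Dcn, decorin, was lower (-0.73 ± 0.16), a call lost with the muscle covariate, and Sparcl1 (0.93 ± 0.092) and Prelp (0.87 ± 0.19) were higher. Basement membrane genes split, with 4 of 24 higher and 7 lower. The 4 were 2 when only the 10 samples were fitted, also with the replicate block or the muscle covariate, without an expression filter and without any 1 of E16.5 FP replicates 1 and 2 and E16.5 MM replicate 3. Nid1 and Nid2, the nidogens, were higher (0.82 ± 0.076 and 0.75 ± 0.12), and Frem1, a protein of the dermal-epidermal junction, lower (-3.13 ± 0.21). Of 36 extracellular proteases and inhibitors 14 were lower and 6 higher (12 and 3 with the muscle covariate), with the stromal protease gene Mmp11 at -1.50 ± 0.088 and Mmp28 at 1.68 ± 0.15. Cdh11, the cadherin of mesenchymal cells, ranged from 6025 to 8401 in E16.5 FP and from 20165 to 30174 in E16.5 MM (-1.87 ± 0.12, adjusted p = 2.62e-12), and Cdh6 was -3.97 ± 0.18. The 14 mesenchymal cadherins had 5 called lower and 3 higher, or 4 and 1 of 12 with the muscle covariate. Their log2 fold changes ran from -3.97 to 2.08 with a median of 0.24, and 9 of the 14 were above 0.

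Axon guidance genes were lower in 23 of 53 tested and higher in 2 (median -0.49), or in 4 without E16.5 FP replicate 1. Dcc and Unc5c, netrin receptors, read 44.1, 77.8, 38.5, 47.5 and 46.9 and 304, 356, 246, 293 and 268 normalized counts in E16.5 FP. In E16.5 MM they read 986, 1220, 631, 562 and 1332 and 4806, 5561, 4314, 2782 and 5688. Neither gene overlapped between the tissues, at log2 fold changes of -4.20 ± 0.23 (adjusted p = 1.09e-12) and -3.98 ± 0.19 (adjusted p = 6.41e-14). In 21 of the 23 genes the highest E16.5 MM value was that of replicate 5. Sema5b was higher (0.82 ± 0.14). Of 18 neurotrophic genes 5 were lower and 2 higher (4 and 1 of 16 with the muscle covariate). The ligand Ntf3 (-2.18 ± 0.24) was lower, while the receptors Ntrk2 (1.37 ± 0.13) and Ngfr (1.31 ± 0.16) were higher, Ngfr without a call once the muscle covariate was used. Among 17 stromal chemokines 4 were lower and 1 higher. Cxcl14 was -4.08 ± 0.36, and Ccl11, eotaxin, was higher, with counts of 89.3 to 214 in E16.5 MM and 325 to 394 in E16.5 FP. With the muscle covariate Cxcl14 was the 1 gene of 15 still called, and Ccl11 was not. Without E16.5 FP replicate 3 or 5, 2 were higher.

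Respiratory chain subunits were called higher in 12 of 42 (median 0.42), or in 6 without E16.5 FP replicate 1. In 11 of the 12 E16.5 FP replicate 1 was highest and in 11 replicate 5 lowest, the order also seen in the lipid storage genes. Cycs, cytochrome c, read 5716, 3293, 3257, 4697 and 2591 normalized counts in E16.5 FP and 1693, 1859, 1763, 2109 and 1863 in E16.5 MM (1.07 ± 0.14, adjusted p = 2.07e-06). With the muscle covariate 0 of the 42 were called by edgeR and 1 had an unadjusted p under 0.05, and their median was 0.23. Of 32 cell cycle genes 27 had a log2 fold change above 0 (median 0.25). Between the tissues 13 did not overlap, against 21.6% of all genes. The list summed to between 6264 and 6899 CPM in E16.5 FP and between 5354 and 5891 CPM in E16.5 MM. Few members passed the calling rule, 3 higher and 1, Ccnd1, lower, shares near those of all genes. The 3 were 1 without E16.5 FP replicate 1 and 5 without E16.5 MM replicate 4, and 2 were lower without E16.5 FP replicate 2 or E16.5 MM replicate 3 or 4. With the replicate block 2 were higher and 2 lower. In the fit with the muscle covariate 1 was higher, a gene outside the 3, and Ccnd1 was not called. Of 23 imprinted genes 6 were higher and 3 lower. The covariate left 2 called higher, and the 3 lower ones were not called. Magel2 (2.23 ± 0.20), its neighbour Ndn (0.72 ± 0.093) and Peg10 (1.01 ± 0.15) were among the higher ones, and of these Magel2 was still called with the muscle covariate.

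Among the lists of other cell types, skeletal muscle genes had the most members called and the largest median change. The epithelial, melanocyte and cartilage, bone and tendon lists also held called genes, more of them lower than higher. Of 33 contractile and metabolic muscle genes 29 were called higher in E16.5 FP (median log2 fold change 2.69), and of 18 myogenic regulators 14 were higher and 1 lower (median 1.93). Acta1, skeletal muscle actin, read 36364, 47966, 23725, 25643 and 4512 normalized counts in E16.5 FP and 3223, 5288, 1211, 2476 and 1280 in E16.5 MM. E16.5 FP replicate 5 was below E16.5 MM replicate 2, so the tissues overlapped (3.36 ± 0.67, adjusted p = 0.000406). Tnni2, a fast troponin, and Myl1, a myosin light chain, behaved alike (3.28 ± 0.56 and 3.30 ± 0.62), as did desmin, Des (2.39 ± 0.40). Replicate 5 was the lowest E16.5 FP sample in all 29 called genes. With all samples 3 of the 33 did not overlap, a share below the 21.6% of all genes tested, against 30 without that replicate. Myf6, a myogenic regulator, read 440, 422, 228, 309 and 40.6 in E16.5 FP and 27.7, 107, 11.02, 24.9 and 18.5 in E16.5 MM (2.93 ± 0.55, 3.79 without E16.5 MM replicate 2). The covariate was built from all 34 muscle genes listed, of which 33 were tested. With it in the fit, the calls of Acta1, Tnni2, Myl1, Des and Myf6 were lost. In that fit 2 of the 33 muscle genes were called lower, and 1 of the 18 myogenic regulators was called, higher. The part of muscle tissue in the differences of other genes was not tested beyond that fit.

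Epithelial genes were lower in 7 of 21 (median -1.05), and all of the list overlapped between the tissues. The muscle covariate left 1 of 19, and the fit of only the 10 samples 4. Krt14 and Krt17, keratins of basal epithelium, read 327, 7.08, 15.9, 17.5 and 9.37 and 140.2, 8.09, 5.31, 2.06 and 6.25 normalized counts in E16.5 FP. In E16.5 MM they read 1053, 172, 107, 549.9 and 882 and 729, 118, 45.3, 246 and 466. The values of E16.5 FP replicate 1 were within the range of E16.5 MM and those of the other 4 below it, at log2 fold changes of -2.88 ± 0.89 (adjusted p = 0.0151) and -3.31 ± 0.87 (adjusted p = 0.00471). Epcam, an epithelial adhesion gene, was -3.00 ± 0.50, or -2.25 without E16.5 MM replicate 1. These 3 lost their calls with the muscle covariate, and Krt14 also when only the 10 samples were fitted (adjusted p = 0.0777). Without E16.5 FP replicate 1 the number called lower was 15, the median of the list was -3.02, and Krt14 and Krt17 were at -5.46 and -5.84. Endothelial genes were higher in 3 of 20 (5 without E16.5 MM replicate 3), with Tek, an angiopoietin receptor, from 3508 to 4049 in E16.5 FP and from 1946 to 2355 in E16.5 MM (0.77 ± 0.079) and Vwf, not called with the muscle covariate, at 0.83 ± 0.16. Of 20 macrophage and leukocyte genes 0 were called by edgeR and 0 by DESeq2, 3 having an unadjusted p under 0.05 in either. In either test 2 also had an adjusted p under 0.05, and all log2 fold changes in edgeR lay between -0.389 and 0.321. Schwann cell and glial genes went both ways, with 4 of 14 higher and 3 lower (1 and 2 of 13 with the muscle covariate), S100b at 1.27 ± 0.20 and Sox10 at -1.99 ± 0.21. Of 14 cartilage, bone and tendon genes 7 were lower and 2 higher (3 and 1 with the muscle covariate), among them Runx2 (-1.91 ± 0.22), Tnmd (-1.80 ± 0.35) and Sox9 (1.40 ± 0.28). Runx2 and Sox9 were not called with the covariate. Neuronal genes were higher in 1 of 19, mast cell genes lower in 1 of 10 (5 higher and not that 1 with the muscle covariate), erythroid genes lower in 2 of 13, melanocyte genes lower in 3 of 7, and smooth muscle and pericyte genes higher in 2 and lower in 1 of 18. Over all genes tested 6.68% were called higher and 7.46% lower, so the neuronal and mast cell counts without the covariate were near those shares. Under the muscle covariate neither of the 2 erythroid genes and neither of the 2 higher smooth muscle and pericyte genes was called, and 1 melanocyte gene was lower. Of the erythroid genes 1 was lower without E16.5 FP replicate 1 or E16.5 MM replicate 2. Of the smooth muscle and pericyte genes 1 was higher without an expression filter and without any 1 of E16.5 FP replicates 1 and 4 and the 5 E16.5 MM samples, and 2 were lower without E16.5 FP replicate 5. Immediate early and heat shock genes, which respond to handling of tissue, were lower in 10 of 19 (4 with the muscle covariate) and higher in 1. Egr1 ranged from 316 to 584 in E16.5 FP and from 678 to 1506 in E16.5 MM (-1.31 ± 0.27), and Hspb1, a small heat shock protein gene also abundant in muscle, was the 1 called higher (1.95 ± 0.30). Neither was called with the muscle covariate, and 2 were higher without any 1 of E16.5 FP replicates 3, 4 and 5 and E16.5 MM replicates 2, 4 and 5. Their part in the other differences was not tested.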

How the data were processed

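Gene-level RNA-Seq counts of 25 samples were used, 10 of them compared here. Per the submitters' processing notes, FastQC 0.11.8, MultiQC 1.9, Trimmomatic 0.39, Salmon 0.99.0 and DESeq2 3.15 were used by the authors with genome build mm10, and the libraries were made from low-input total RNA with Ovation SoLo and sequenced on a NextSeq instrument. The deposited values are estimated counts per gene, which Salmon's estimates would give, held as whole numbers. They were rounded to whole numbers before use, and the annotation release and the strand setting of the counting are not given in the sources used here, so reads of genes that overlap on opposite strands cannot be told apart. Among genes described, exons of Tbx3, Pth1r, Ccnd1, Mfap4, Acvr2a, Nid2 and Mmp11 overlap a named gene on the other strand.

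Counts were analysed with edgeR 4.0.16 in R 4.3.3 (TMM factors, filterByExpr, quasi-likelihood test, 20 residual degrees of freedom over 5 tissues), Benjamini-Hochberg adjusted over 17657 genes. A normalized count is a count divided by its library size times its TMM factor, times the mean library size of 26524288 counts. Each SE was taken as the absolute log2 fold change divided by the root of F. Normalized counts are not scaled by gene length, so levels are not compared between genes. The 375 rows without a symbol held 0.0805% of counts. Precision is that of 5 pools per tissue, at 20678150 to 27444688 counts each.

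The genes described come from a rule: the 10 largest called changes per direction without overlap and with a mean over 100, up to 4 called members per list and direction, and genes the study names. The rule gave 267 genes. Of these, 173 are described, picked after their values were seen and with the least stable left out, and Fasn, Scd1, Col1a1 and Col1a2 were added. The tissues compared and the 48 gene lists (35 of pathways, 12 of cell types, 1 of tissue handling) were chosen with earlier results of these data known. Genes in several lists count in each. Gene positions and exon overlaps were taken from GENCODE M21 (GRCm38) and promoters from RefSeq (GRCm38.p6). DESeq2 1.42.0, other filters, a fit of only the 10 samples, a replicate block, a muscle covariate and leaving out each library were tried as alternatives. The scripts were tested on simulated data. Some results are not reported here. Plots were drawn with matplotlib 3.10.9, and tables were made with pandas 2.3.3 and numpy 2.4.6 under Python 3.11.15.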

Additional observations from a re-analysis of the deposited data

Results flagged for a closer look

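In 24 of 380 groups of 5 samples (6.32%) the highest or lowest sample lay so far from the others that its gap exceeded Dixon's critical value. Chance alone flags about 1 in 20 such groups. Values are normalized counts unless given as CPM, and each is set beside the range of the other 4 samples.

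Several such values came from E16.5 FP replicate 1. Its keratins stood apart, with Krt14 at 326.9 (the others 7.075 to 17.54) and Krt17 at 140.2 (the others 2.064 to 8.086). The summed epithelial genes were 258.4 (the others 21.16 to 24.01) CPM there, and Col7a1, the anchoring fibril collagen, was 261.3 (the others 73.78 to 111.5). Replicate 5, the E16.5 FP library with least muscle signal, had Apela at 8.33 (the others 0 to 1.328) and Dcn at 46653 (the others 37240 to 39961). Its summed macrophage and leukocyte genes were 1526 (the others 1318 to 1373) CPM and its mast cell genes 4086 (the others 1873 to 2221) CPM. In E16.5 FP replicate 2, Angpt1 was 825.8 (the others 1186 to 1326) and Dcc 77.83 (the others 38.5 to 47.47), and in replicate 3 Sfrp1 was 1244 (the others 1502 to 1568).

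E16.5 MM replicate 5 held most of the values that stood apart in that tissue, and in Wnt and Hedgehog genes it was the highest. Axin2 was 1885 (the others 1341 to 1475), Notum 340.9 (the others 125.9 to 167.5), Apcdd1 15313 (the others 10115 to 11114) and Fzd10 873.8 (the others 414.6 to 536). Gli1, a Hedgehog target, was 784.5 (the others 521.5 to 585) and Loxl4, a lysyl oxidase gene, 1953 (the others 1255 to 1414). Tbx15 was lowest there, at 826.6 (the others 1008 to 1063). In E16.5 MM replicate 4, Meox2 was 941.5 (the others 1043 to 1077), Ntrk2 871.3 (the others 673.4 to 699.7) and the summed smooth muscle and pericyte genes 878.6 (the others 1094 to 1167) CPM. In E16.5 MM replicate 2, the muscle genes Cox8b and Myf6 were 30.32 (the others 2.263 to 9.238) and 106.7 (the others 11.02 to 27.71), and in replicate 1 Epcam was 386.8 (the others 26.94 to 130.1).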

How the results depend on the processing

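The number of genes called between E16.5 FP and E16.5 MM was 2497, with 1179 higher and 1318 lower. It was 2543 with DESeq2's Wald test, 2490 with DESeq2 size factors in edgeR, 2403 without an expression filter, 2383 with only the 10 samples fitted and 2341 when the mean over both tissues had to exceed 50. Leaving out 1 library at a time gave 2351 to 2660 genes, 1079 to 1330 higher and 1223 to 1364 lower. The summed skeletal muscle level as a covariate gave 1323 genes, 475 higher and 848 lower, and 2372 of the 2495 calls it tested kept their sign. The cause of the smaller number was not tested, and the covariate differed between the tissues themselves.

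Of the 171 described genes that were called, 44 lost the call with the muscle covariate, 4 when the mean over both tissues had to exceed 50, and 0 with DESeq2's Wald test. The genes described were picked partly for stable calls. Over all 263 called genes of the naming rule 103 lost the call with the muscle covariate and 26 without some single library. Cdkn1a, Cox6a2, Dll1, Erbb4, Fras1, Frzb, Fzd9 and Npnt were among 9 of them that had the opposite sign with the covariate. Among genes not called, leaving out 1 library gave log2 fold changes of -0.142 to 0.0756 for Igf1, -0.0603 to 0.0927 for Fasn and -0.0171 to 0.179 for Scd1, and Fasn was -0.115 with the muscle covariate, so their signs changed between settings.

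With the replicate number as a block, 2322 genes were called, 1082 higher and 1240 lower, and Nnat was the described gene that lost its call. The deviations of same-numbered samples from their tissue means correlated at 0.0228, 0.196, -0.0426, 0.217 and -0.0721 for replicates 1 to 5. The numbers were therefore not taken to pair the samples, and not every sample correlated best with its own number. Some samples of different number shared more variation. E16.5 MM replicate 4 correlated with E16.5 FP replicates 1 to 5 at -0.341, -0.292, 0.241, 0.217 and 0.294. For E16.5 MM replicate 2 these values were 0.156, 0.196, -0.114, -0.0456 and -0.223. The pools of the 2 tissues may thus not vary independently, and the source of this shared variation was not tested.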
